A study of Solanum tuberosum with 100 samples.

Results

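The genes described here are the 200 well-expressed genes of the potato tuber whose level differed most between sister genotypes of the same cross. They were chosen by their measured values in these same samples, so their spread is a description and not a finding. A gene was well expressed where it had a mean of 10 or more CPM (the count of a gene divided by the total count of the sample and multiplied by 1000000) and no count of 0 in any sample, which held for 10151 of 25163 genes. Its level was taken as log2(CPM + 1), the mean of each cross was subtracted, and the 200 genes with the highest standard deviation (SD) of this residual were kept.

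The study sequenced polyA RNA of bruised tubers from 100 progeny genotypes of tetraploid potato (Solanum tuberosum), each genotype once. All genotypes had Crop52 as a common parent, and their 11 crosses were numbered 2121, 2155, 2158, 2159, 2165, 2168, 2170, 2172, 2175, 2177 and 2183, with 5 to 16 genotypes in each. The second parents were, in that order, V390, Admiral, Dolce Vita, Driver, Crop18, Moonlight, Red Rascal, Summit Russet, Crop9, Crop37 and Crop58. After cold storage, tubers were struck with a falling lead weight. Tissue of the 3 tubers of a biological replicate was pooled 2 h after the impact. Bruising was scored per tuber on the day after the impact, on a scale from 0 to 5. The RNA was thus taken before the score. A mean score of 1 or less placed a sample in the low-bruising group (41 samples) and a mean of 2 or more in the high-bruising group (33 samples), and the 26 samples in between, which the labels set apart from the comparison of the groups, are called intermediate here. A second replicate of the genotypes was scored but not sequenced. All sequenced tubers had been struck, and no untouched tuber was among the samples, so a level cannot be assigned to the tissue before or after the impact.

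Potato tubers fill with storage proteins as they grow. Patatins are the main storage glycoproteins of the tuber and also hydrolyse lipids, and the protease inhibitors of the Kunitz, aspartic, cysteine and type-2 families are the other abundant group, which is also known from wounding and insect defence. Polyphenol oxidases oxidise phenolic compounds to quinones that form the dark pigment of a bruise, and lipoxygenases oxygenate polyunsaturated fatty acids on the way to jasmonate and other oxylipins.

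Total counts per sample ran from 6832655 to 41650152, with a median of 19394566. The summed counts of the listed patatin and lipase, protease inhibitor and starch genes were above 0 in every sample. They made up 0.0584 to 1.48% of all counts for 9 patatin and lipase genes, 0.108 to 1.89% for 10 protease inhibitor genes and 0.0876 to 0.272% for 3 starch genes. Single genes of these classes had a count of 0 in some samples, such as Aspartic protease inhibitor 10 in 53. The 200 variable genes together held 1.18 to 4.25% of the counts of a sample (median 1.77%). The mean size of their residuals was highest in genotypes 2121_2 (1.27 on the log2 scale), 2175_2 (1.197) and 2159_13 (1.19), against a median of 0.918. Without those 3 samples 192 of the 200 genes were chosen again, an alternative added after seeing the data. The samples are pooled tissue, so fewer cells of a type and less RNA per cell cannot be told apart. The authors' counting kept only reads with a unique position, and genes with near-identical copies, such as the inhibitor and patatin genes, could have lost reads to the copies, so their levels are uncertain.

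The SD within crosses of the 200 genes ran from 0.886 to 2.81 on the log2 scale, with a median of 1.05, against a median of 0.263 over all well-expressed genes. The last 3 genes inside the limit had SDs of 0.888 (PGSC0003DMG400017637), 0.888 (PGSC0003DMG400016892) and 0.886 (PGSC0003DMG400008200), and the first 3 outside had 0.885 (PGSC0003DMG400016643), 0.884 (PGSC0003DMG400000752) and 0.883 (PGSC0003DMG400005666), so the limit cut through a continuous range. The ratio of the highest to the lowest CPM over the 100 samples had a median of 142 among the 200 genes and 3.34 among the well-expressed genes. Counting error, computed from the counts as Poisson error, made up at most 1.83% of the variance of any of the 200 genes (median 0.621%). Other differences between libraries are not part of that value.

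**Figure D1:**
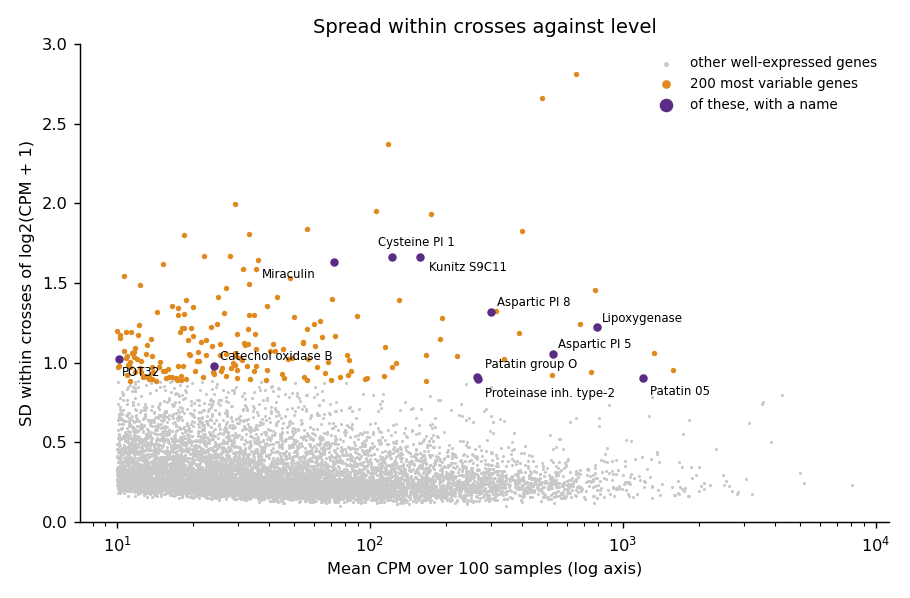
SD within crosses of log2(CPM + 1) against mean CPM (log axis) for the 10151 well-expressed genes; orange points are the 200 most variable genes and purple points the 11 of them with a name. The 200 genes lie above an SD of 0.886 at mean levels from 10.0 to 1574 CPM.

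How the chosen spread was divided over crosses and samples is described next, from the same residuals that chose the genes. Of the 200 genes, 144 were among the 200 most variable well-expressed genes in 6 or more of the 11 crosses, 15 were so in every cross, and 0 were so in 2 or fewer. The sample farthest from its cross mean never held more than 16.8% of a gene's squared residuals. The median SD of the 200 genes was highest in cross 2121 (1.22) and lowest in cross 2183 (0.923), which also had the fewest genotypes (5).

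The distributions leaned towards low values. The residuals of 150 of the 200 genes had a negative skew, 13 had a skew below -1 and 0 had a skew above 1. Well-expressed genes as a whole also leaned this way, with a median skew of -0.12 against -0.26 for the 200, and 1.61% of them were below -1 and 0.187% above 1. In 56 of the genes, 5 or more samples lay below 10% of the gene's own median CPM, and in 19 genes 5 or more samples lay above 10 times the median. The same held for 12 and 2 of the other 9951 well-expressed genes. The most variable gene, PGSC0003DMG400015225, had a lowest, median and highest level of 1.43, 839 and 1863 CPM, and was below 10% of its median in 37 samples that came from all 11 crosses. PGSC0003DMG400010141 ran from 0.263 through a median of 389 to 1891 CPM, with 28 samples in 9 crosses below 10% of its median. PGSC0003DMG400019517 ran from 0.196 through 17.5 to 1230 CPM, and here 23 samples lay above 10 times the median and 13 below 10% of it. These genes were near 0 in some genotypes and at a high level in sister genotypes, and they have no name in the tables used here.

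PGSC0003DMG400009109 (0.0814, 14.6 and 196 CPM) and PGSC0003DMG400010144 (0.516, 94.5 and 431 CPM) complete the 5 genes with the highest SD. A flat or 2-peaked shape, read from an excess kurtosis below -1, was found in 9 genes. The lowest value, -1.59, belonged to PGSC0003DMG400006412 (0.234, 13.2 and 27.4 CPM), singled out after its values were seen, with 25 samples in 10 crosses below 10% of its median.

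Names were known for 11 of the 200 genes and not for the other 189, since names were taken from the study's gene tables alone and other annotation was not used here. Those tables hold 97 genes, and 47 of them were well expressed. They had been chosen by the study from candidates and from these samples, so the counts that follow describe the tables and do not compare gene classes at large. Of the well-expressed listed genes, 6 of 8 protease inhibitors, both polyphenol oxidases (2 of 2) and 2 of 5 patatin and lipase genes were among the 200, against 0 of 3 phenylpropanoid genes, 0 of 2 starch genes and 1 of 27 others. The inhibitors and patatins that stayed outside were variable too: the Kunitz-type proteinase inhibitor PGSC0003DMG400009512 had an SD of 0.753 (rank 328) and Patatin-2-Kuras 4 had 0.786 (rank 287). A second gene named Cysteine protease inhibitor 1, PGSC0003DMG400010143, had an SD of 0.653 (rank 528). Its median was 722 CPM, against 21.1 CPM for PGSC0003DMG400010139, the gene meant by this name below. The starch genes, an alpha-glucan phosphorylase and the small subunit of ADP-glucose pyrophosphorylase, had SDs of 0.386 and 0.316.

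Among the protease inhibitors, Cysteine protease inhibitor 1 (PGSC0003DMG400010139, SD 1.66), which blocks cysteine proteases of the papain type, had a lowest, median and highest level of 1.80, 29.7 and 815 CPM in low-bruising samples and 3.81, 19.8 and 853 CPM in high-bruising samples. The groups overlapped over nearly their whole range. Kunitz-type enzyme inhibitor S9C11 (PGSC0003DMG400010147, SD 1.66) had 4.34, 103 and 689 CPM in low-bruising samples and 9.25, 101 and 835 CPM in high-bruising samples. It was below 10% of its median in 10 samples, of which 5 were low-bruising, 4 intermediate and 1 high-bruising. Miraculin (PGSC0003DMG400008546, KTI-D, SD 1.64), a Kunitz-family protein, had 1.29, 45.58 and 451 CPM in low-bruising and 1.103, 23.2 and 146 CPM in high-bruising samples, so its upper range was lower in the high-bruising group while the ranges overlapped.

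Aspartic protease inhibitor 8 (PGSC0003DMG400009511, SD 1.32), a Kunitz inhibitor of cathepsin D, had 8.57, 259 and 1774 CPM in low-bruising and 49.0, 254 and 687 CPM in high-bruising samples. Aspartic protease inhibitor 5 (PGSC0003DMG400009513, SD 1.06) had 38.1, 490 and 2598 CPM against 139, 411 and 1251 CPM. The group medians differed little against these ranges, and in both the lowest sample was genotype 2159_13 and the highest 2170_7, each of the low-bruising group. Proteinase inhibitor type-2 P303.51 (PGSC0003DMG400004547, SD 0.901), of the family that inhibits chymotrypsin and trypsin, had 47.3, 212 and 937 CPM in low-bruising and 46.6, 266 and 612 CPM in high-bruising samples.

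The polyphenol oxidases stand at the start of pigment formation in a bruise. Catechol oxidase B (PGSC0003DMG400029575, SD 0.980) had 1.31, 18.4 and 116 CPM in low-bruising, 1.06, 21.4 and 62.9 CPM in intermediate and 2.02, 12.5 and 176 CPM in high-bruising samples. Isoform POT32 (PGSC0003DMG400018916, SD 1.02) had 0.365, 4.84 and 81.6 CPM in low-bruising, 1.02, 4.73 and 36.0 CPM in intermediate and 0.380, 7.01 and 71.9 CPM in high-bruising samples. The 3 groups overlapped for both genes, and the genotypes with the highest level of each came from cross 2159. The other listed polyphenol oxidases in the table were not eligible, since each had a count of 0 in at least 2 samples.

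Patatin 05 (PGSC0003DMG400008749, SD 0.902) had 243, 873 and 7090 CPM in low-bruising and 290, 893 and 4279 CPM in high-bruising samples. Patatin group O (PGSC0003DMG400029247, SD 0.912) had 89.9, 236 and 874 CPM against 43.94, 217 and 558 CPM. The lowest level of both patatins was in genotype 2121_11 (116 and 23.0 CPM), which was intermediate for bruising. The lipoxygenase LOX1-ST-2 (PGSC0003DMG400020999, SD 1.22) had 59.8, 443 and 5656 CPM in low-bruising and 67.1, 592 and 1819 CPM in high-bruising samples, and its highest level of 8175 CPM was in the intermediate genotype 2121_2.

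**Figure D2:**
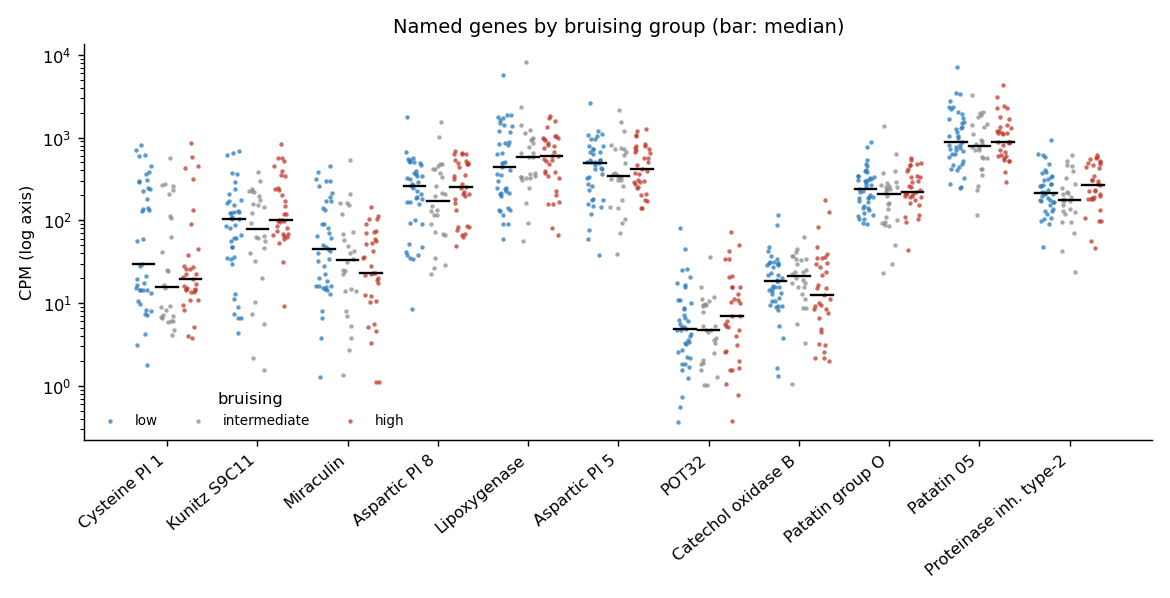
CPM (log axis) of the 11 named genes in each of the 100 samples, by bruising group, with a bar at the group median. The groups overlap for every gene, and Miraculin has the lower median in the high-bruising group (23.2 against 45.58 CPM).

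The residuals of the 200 genes were correlated with each other to see which genes varied together among sister genotypes. These Pearson correlations over 100 samples are descriptions, since the samples share a parent and all genes of a sample share its library and depth. Of the 19900 pairs, 519 (2.61%) had an r above 0.5, against 0.389% of all pairs of well-expressed genes. The median r was 0.01 in both sets, and 0 pairs of the 200 had an r below -0.5. The closest pair was PGSC0003DMG400026051 with PGSC0003DMG400028542 (r = 0.947), and the most opposed was PGSC0003DMG400019517 with PGSC0003DMG400024578 (r = -0.455). The first 3 principal components held 28.1% of the variance of the 200 genes, and 98 genes joined no other at an average r of 0.5. Of the 200 genes, 110 had at least 1 partner with an r above 0.5, and 17 had no partner with an r above 0.3.

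Grouping by average linkage at r = 0.5 gave 4 modules of 5 or more genes, with 55 genes in all, and 19 small clusters of 2 to 4 genes with 47 genes. Module 1 had 21 genes with a median r of 0.739 between them, and PGSC0003DMG400022341 followed the module mean most closely (r = 0.959). Module 2 had 20 genes with a median r of 0.822, and PGSC0003DMG400026500 followed its mean (r = 0.959). Module 3 had 9 genes (median r 0.796), led by PGSC0003DMG400017351 (r = 0.939), and contained the closest pair above. Module 4 had 5 genes (median r 0.609), led by PGSC0003DMG400008801 (r = 0.887). None of the 55 genes in these modules had a name.

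The means of modules 3 and 4 were opposed (r = -0.333), and the r between the other module means ran from -0.117 (modules 2 and 4) to 0.0950 (modules 1 and 3). Removing the depth of the samples by regression left all 55 genes in the same 4 modules. The module 1 mean was highest in genotype 2172_4 and lowest in 2121_2, the module 2 mean highest in 2155_8 and lowest in 2121_11, and the module 3 mean was both highest and lowest within cross 2165 (2165_10 and 2165_7).

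**Figure D3:**
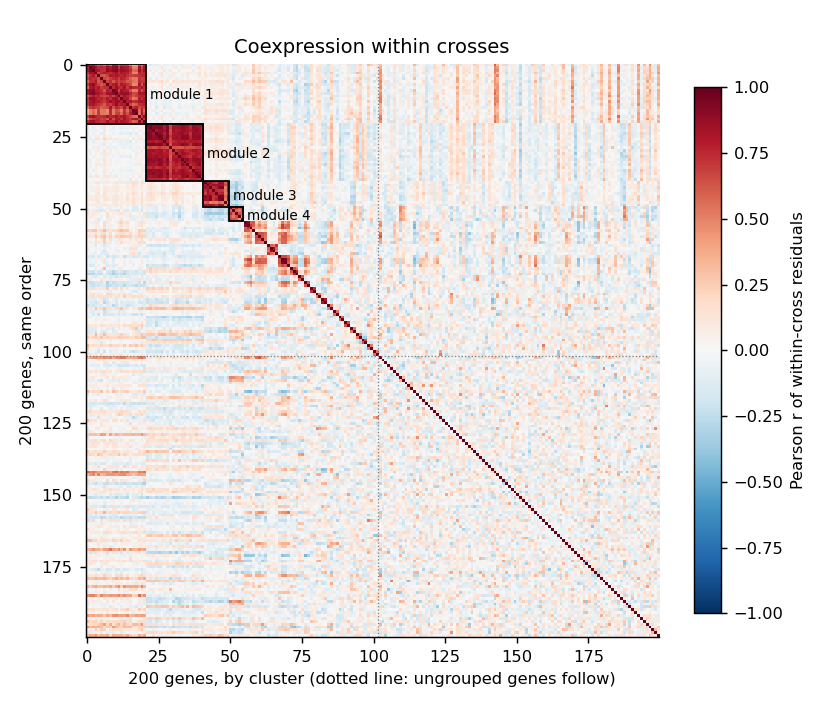
Pearson r of the within-cross residuals of log2(CPM + 1) for all pairs of the 200 genes, ordered by cluster, with boxes around modules 1 to 4 (21, 20, 9 and 5 genes). The dotted line separates the 102 genes in clusters from the 98 ungrouped genes, which joined no cluster at an average r of 0.5.

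The order of the table bears on these groups, since its rows followed chromosome order for all 92 listed genes with a known position (0 out of order). Some members were neighbours: 32 of the 200 genes had another of them within 5 rows, and the 21 pairs so placed had a median r of 0.287, with 9 pairs above 0.5. Of those 9, 3 lay inside the large modules, 2 in module 1 (PGSC0003DMG400026854 with PGSC0003DMG400026855, r = 0.893, and the leading gene PGSC0003DMG400022341 with PGSC0003DMG400022342, r = 0.878) and 1 in module 2 (PGSC0003DMG400013460 with PGSC0003DMG400013411, r = 0.786). Among all 22589 pairs of well-expressed genes within 5 rows, the median r was 0.0619 and 2.90% were above 0.5. An antisense or overlapping gene could not be told from a neighbour here, because no annotation of this build was used.

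A run of 25 rows on chromosome 3 held 13 well-expressed genes, of which 8 were among the 200, 4 of them named inhibitors. Both ends of the run were set at genes of the 200, so this share was favoured by how the run was drawn. The run starts at Kunitz-type enzyme inhibitor S9C11, ends at Proteinase inhibitor type-2 P303.51 and also holds Cysteine protease inhibitor 1 and Aspartic protease inhibitor 5. The r between its 8 variable genes ran from 0.0470 to 0.912, with a median of 0.418. Kunitz-type enzyme inhibitor S9C11 clustered with 3 unnamed genes of the run, among them PGSC0003DMG400010144 (r = 0.713 with it) and PGSC0003DMG400010141, and those 2 had the highest r of the run. Cysteine protease inhibitor 1, which lies 2 rows from PGSC0003DMG400010141, had an r of 0.0470 with it. Its closest partner was PGSC0003DMG400019517 (r = 0.610).

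Inhibitors outside the run joined those inside it. Aspartic protease inhibitor 8, at another place on chromosome 3, had an r of 0.933 with Aspartic protease inhibitor 5 and of 0.674 with Proteinase inhibitor type-2 P303.51, and the 3 genes formed a cluster with the unnamed PGSC0003DMG400005269. Miraculin, on chromosome 12, clustered with the lipoxygenase of chromosome 8 (r = 0.628) and with the unnamed PGSC0003DMG400010170 of the run. Aspartic protease inhibitor 5 also had an r of 0.612 with Miraculin and of 0.598 with the lipoxygenase. The mean of the Miraculin cluster and that of the aspartic inhibitor cluster had an r of 0.673.

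Patatin 05 and Patatin group O, which lie 6 rows apart on chromosome 8, had an r of 0.787 and formed a cluster with PGSC0003DMG401017090, an unnamed gene between them. The patatins followed Aspartic protease inhibitor 5 less closely (r = 0.543 and 0.530). The polyphenol oxidases, both on chromosome 8, joined no cluster and had an r of 0.0892 with each other. The closest named partner of POT32 was Proteinase inhibitor type-2 P303.51 (r = 0.534), and that of catechol oxidase B was Aspartic protease inhibitor 8 (r = 0.275).

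Differences between crosses were tested with edgeR's quasi-likelihood F test over the 11 crosses, with p-values adjusted by the Benjamini-Hochberg method over all 25163 genes, as in the tests that follow. The level of 151 of the 200 genes (75.5%) differed between crosses at an adjusted p under 0.05, against 67.1% of all genes and 83.8% of the well-expressed genes. At an unadjusted p under 0.05 the count was also 151, against 70.5% and 86.3%. The share was thus between the background shares. Since a large spread within crosses was the rule of choice and is also the error of this test, the count describes the genes and does not set them apart. The share of the variance on the log2 scale that lay between crosses had a median of 26.2% over the 200 genes and 33.3% over the well-expressed genes.

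The counts differed between the modules. All 20 genes of module 2 and 15 of 21 genes of module 1 passed the test, as did 4 of 5 genes of module 4 and 1 of 9 genes of module 3. These counts are not of separate observations, since genes of a module vary together. The leading gene of module 2, PGSC0003DMG400026500, had a lowest, median and highest level of 4.48, 136 and 243 CPM in the 11 genotypes of cross 2121, of 1.32, 6.502 and 24.6 CPM in the 16 of cross 2159 and of 2.47, 3.65 and 13.1 CPM in the 5 of cross 2183. The median of cross 2121 was above every genotype of crosses 2159 and 2183. The leading gene of module 3, PGSC0003DMG400017351, spread widely in each cross, from 1.22 to 266 CPM in cross 2165 alone.

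The 2 genes with the smallest p were PGSC0003DMG400006003 (adjusted p = 1.45e-13 by edgeR) and PGSC0003DMG400021727 of module 2 (adjusted p = 3.05e-13 by edgeR). The first had a median of 35.5 CPM in cross 2158 and of 0.359 CPM in cross 2177, where the highest of 6 genotypes had 1.91 CPM. The second had a median of 76.9 CPM in cross 2121 and of 1.00 CPM in cross 2159. Over all samples the medians of the 2 genes were 4.06 and 4.91 CPM, below the mean level required of a well-expressed gene. Both genes thus passed that filter through samples with high levels, such as those of crosses 2158 and 2121. The choice of genes therefore favoured these differences between crosses.

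**Figure D4:**
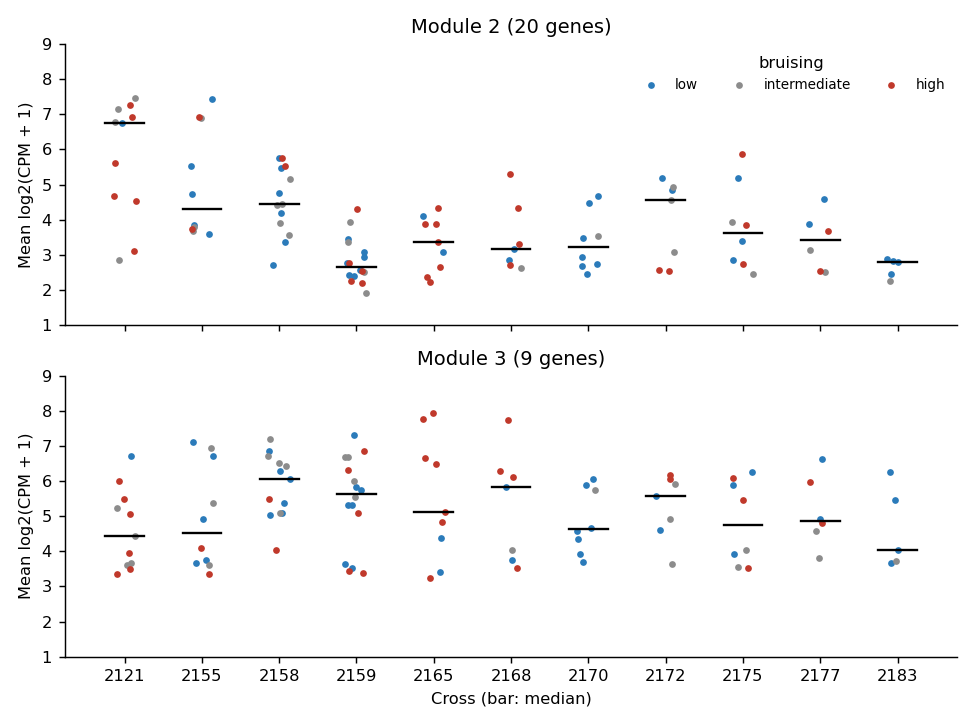
Mean log2(CPM + 1) over the 20 genes of module 2 (top) and the 9 genes of module 3 (bottom) in each sample, by cross and coloured by bruising group, with a bar at the cross median. Module 2 is highest in cross 2121 (median 6.75) and lowest in cross 2159 (median 2.67), while module 3 spreads over a similar range in most crosses.

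Of the named genes, 9 of 11 differed between crosses by edgeR. Cysteine protease inhibitor 1 (adjusted p = 5.51e-10) had a median of 276 CPM in cross 2170 and 263 CPM in cross 2183, where no genotype was below 137 CPM, and medians of 14.2 and 14.5 CPM in crosses 2159 and 2165, where no genotype was above 27.9 CPM. Catechol oxidase B (adjusted p = 2.81e-06) had its highest median of 33.037 CPM in cross 2159 and its lowest of 6.59 CPM in cross 2168. POT32 also passed (adjusted p = 2.23e-07 by edgeR). Patatin group O and Proteinase inhibitor type-2 P303.51 did not (adjusted p = 0.356 and 0.246). Several of these calls were lost when 1 cross was left out. With all crosses, the adjusted p by edgeR was 0.0174 for Miraculin, 0.0370 for Kunitz-type enzyme inhibitor S9C11 and 0.0476 for Aspartic protease inhibitor 8. The call of Patatin 05 was lost without cross 2170 (adjusted p = 0.552 by edgeR) and that of the lipoxygenase without cross 2121 (0.109). Miraculin was lost without cross 2121 (0.0671) or 2175 (0.0653). Kunitz-type enzyme inhibitor S9C11 was lost without any of crosses 2158, 2172, 2175 and 2177 (adjusted p of up to 0.187 by edgeR), and Aspartic protease inhibitor 8 without any of crosses 2158, 2170, 2172 and 2175 (up to 0.116).

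To ask whether the variable genes followed the bruising score among sister genotypes, the score of the sequenced tubers was fitted in edgeR with cross as a term over all 100 samples. None of the 200 genes passed the threshold (0 called, against a background of 0% of all genes), and DESeq2 and limma-voom also called 0. At an unadjusted p under 0.05 there were 6 of the 200 genes (3%) by edgeR, against 6.66% of all genes and 8.49% of the well-expressed genes. DESeq2 gave 8 of the 200, against 1690 of 25163 genes, and limma-voom gave 19 of the 200, against 1810 of 25163 genes. The share of the 200 was thus below that of all genes by edgeR and DESeq2 and above it by limma-voom. The slopes had a median of -0.03 on the log2 scale per point of score (-0.0044 over all genes) and were positive in 85 genes and negative in 115, with a median standard error (SE) of 0.152.

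The smallest p among negative slopes was that of PGSC0003DMG400024003 (slope -0.82, SE 0.269, adjusted p = 0.453 by edgeR, 0.0269 to 0.871 over the alternatives), the gene with the seventh highest SD. It had 1.45, 29.0 and 506 CPM in low-bruising and 0.851, 14.1 and 246 CPM in high-bruising samples, and the highest sample of each bruising group came from cross 2158. Of all 200 genes, Miraculin followed this gene most closely (r = 0.627). On the negative side PGSC0003DMG402007101 came next (slope -0.24, SE 0.116, adjusted p = 0.713 by edgeR). The positive slopes with the smallest p were those of PGSC0003DMG400028624 (0.34, SE 0.126, adjusted p = 0.554 by edgeR) and PGSC0003DMG400031365 (0.28, SE 0.122, adjusted p = 0.673 by edgeR). PGSC0003DMG400028624 had 3.19, 34.8 and 132 CPM in low-bruising and 5.78, 44.3 and 179 CPM in high-bruising samples, and the groups overlapped for all 4 genes.

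The 11 named genes had slopes from -0.31 (Miraculin) to 0.32 (Kunitz-type enzyme inhibitor S9C11, 95% interval -0.08 to 0.73), with adjusted p-values of 0.821 or more by edgeR. The slope of catechol oxidase B was 0.05 with an interval from -0.23 to 0.33, and that of POT32 was 0.04 with an interval from -0.29 to 0.37. Both intervals held 0, and slopes inside them in either direction were not excluded. All 21 genes of module 1 and all 5 of module 4 had negative slopes, and 8 of 9 genes of module 3 had positive ones, but genes of a module vary together and are not separate observations, and 0 genes of the 4 modules had an unadjusted p under 0.05.

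The result depended on the cross term. Without it, 782 of all 25163 genes and 2 of the 200 were called by edgeR, PGSC0003DMG400024003 (slope -0.96) and PGSC0003DMG400012174 (slope 0.45), the latter named here because it was called. The crosses also differed in bruising: cross 2170 had 7 low-bruising and 0 high-bruising samples, cross 2165 had 2 and 7, and cross 2121 had 1 and 6.

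The high- and low-bruising groups were also compared directly with edgeR over 74 samples without a cross term, which follows the design of the study. Again 0 of the 200 genes passed, against a background of 0.183% of all genes and 0.0591% of the well-expressed genes, and DESeq2 and limma-voom called 0 of them. At an unadjusted p under 0.05 there were 18 (9%), 12 higher and 6 lower in the high-bruising group, against 12.4% of all genes and 15.4% of the well-expressed genes. DESeq2 gave 22 of the 200, against 3040 of 25163 genes, and limma-voom 21, against 2783 of 25163.

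Miraculin had the smallest p of the 200 genes here. It was 1.29 lower in the high-bruising group on the log2 scale (log2 change -1.29, SE 0.392, adjusted p = 0.134 by edgeR, 0.0769 to 0.889 over the alternatives). Fitted together with cross, its log2 change was -1.08 (SE 0.489, adjusted p = 0.889 by edgeR). PGSC0003DMG400032157 was the next gene on the lower side (log2 change -0.61, SE 0.220, adjusted p = 0.217 by edgeR). On the higher side were PGSC0003DMG400012826 (1.11, SE 0.347, adjusted p = 0.149 by edgeR), with 0.806, 8.66 and 64.3 CPM in low-bruising and 0.828, 23.695 and 159 CPM in high-bruising samples, and PGSC0003DMG400033050 (0.87, SE 0.286, adjusted p = 0.172 by edgeR). Catechol oxidase B had a log2 change of 0.16 (interval -0.48 to 0.81) and POT32 of 0.45 (interval -0.30 to 1.201).

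The values of modules 2, 3 and 4 in this comparison moved with the cross term or with cross 2121. In module 1, 16 of 21 genes had a negative log2 change (median -0.25). With cross as a term 19 of 21 did (median -0.09), and without cross 2121 18 of 21 did (median -0.30), and 0 were called in each fit. In module 2, 19 of 20 genes had a positive log2 change (median 0.32), but with cross as a term 11 of 20 did (median 0.04), and without cross 2121, where the module was highest, 7 of 20 did (median -0.03). In module 3, 8 of 9 genes had a positive log2 change (median 0.23), against 3 of 9 when cross was fitted (median -0.14) and 9 of 9 without cross 2121 (median 0.41). In module 4, 0 of 5 genes were positive, also when cross was fitted, and 3 of 5 without cross 2121. The cluster of Aspartic protease inhibitors 5 and 8 was picked from the 19 small clusters after its values were seen. It had a median residual of 0.46 in high-bruising and -0.28 in low-bruising samples, with the high-bruising mean above the low-bruising mean in 7 of the 9 crosses that held both groups. Other small clusters, picked in the same way, had wider gaps: that of PGSC0003DMG400015225 had medians of 0.06 in high-bruising and 1.16 in low-bruising samples (high above low in 2 of 9 crosses), and that of PGSC0003DMG400021122 had 0.21 and -0.62 (7 of 9 crosses). In the direct fit the log2 changes of Aspartic protease inhibitors 5 and 8 were -0.10 and 0.02. The residuals of the aspartic inhibitor cluster overlapped between the groups, from -1.18 to 1.64 in the high-bruising and from -3.49 to 1.96 in the low-bruising samples, and none of its 4 genes had an unadjusted p under 0.05 in the score fit or in this comparison.

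**Figure D5:**
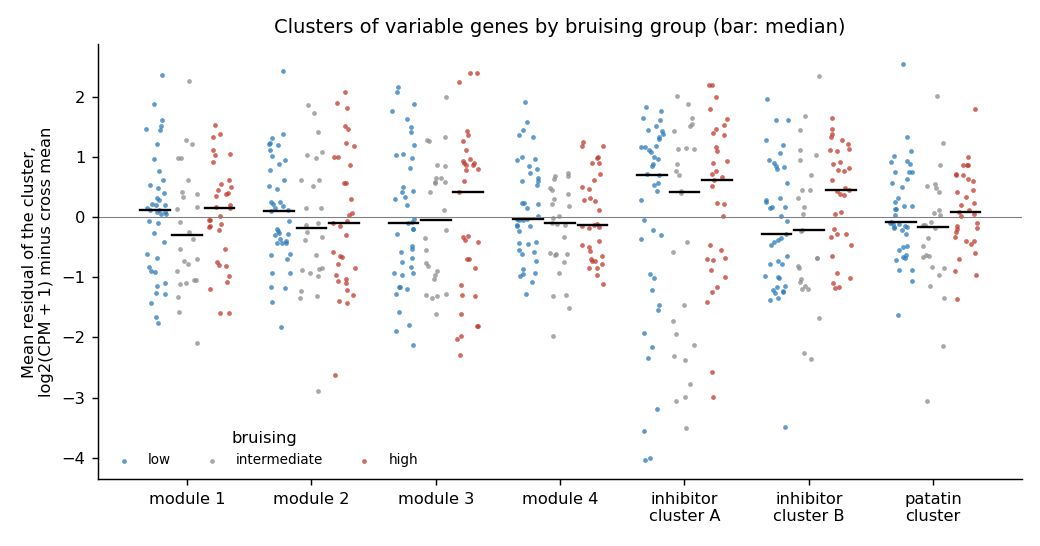
Mean within-cross residual of log2(CPM + 1) in each sample for modules 1 to 4, the cluster of Kunitz-type enzyme inhibitor S9C11 (inhibitor cluster A), that of Aspartic protease inhibitors 5 and 8 (inhibitor cluster B) and the patatin cluster, by bruising group, with a bar at the median. The groups overlap for every cluster, and cluster B has medians of -0.28 in low-bruising and 0.46 in high-bruising samples.

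The score of the replicate that was not sequenced was known for 99 genotypes and gave a second measure of bruising from other tubers of the same genotype. Fitted within crosses by edgeR, 0 of the 200 genes followed it, against a background of 0% of all genes, and 17 (8.5%) had an unadjusted p under 0.05, against 6.95% of all genes and 8.19% of the well-expressed genes. DESeq2 also called 0, with 20 at an unadjusted p under 0.05, against 1838 of 25163 genes. The 17 slopes were 14 negative and 3 positive, and 4 of them belonged to the 5 genes of module 4 and 4 to module 1. Genes of a module vary together, so these slopes are not separate observations. PGSC0003DMG400007379 had the smallest p (slope -0.46, SE 0.134, adjusted p = 0.374 by edgeR). In the groups, which were set by the score of the sequenced tubers and not by this score, it had 0.777, 12.0 and 24.1 CPM in low-bruising and 0.979, 5.51 and 23.71 CPM in high-bruising samples. It clustered with PGSC0003DMG400015225, the most variable gene (r = 0.616). On the score of the sequenced tubers, the lowest unadjusted p of these 2 genes was 0.393 by edgeR. PGSC0003DMG400033050, named above for the groups, had a positive slope here too (0.36, SE 0.133, adjusted p = 0.534 by edgeR). Miraculin, lower in the high-bruising group in the direct comparison without passing the threshold, had a slope of 0.32 (SE 0.219, adjusted p = 0.829 by edgeR) on this score, of the opposite sign.

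Whether the slope on the score differed between crosses was tested as an interaction in edgeR. None of the 200 genes passed (0 called, against 0% of all genes), and 13 (6.5%) had an unadjusted p under 0.05, against 6.09% of all genes and 5.29% of the well-expressed genes. Of these, 6 were among the 9 genes of module 3, which vary together. PGSC0003DMG400017637 had the smallest p (adjusted p = 0.162 by edgeR), followed by PGSC0003DMG400026051 of module 3 (adjusted p = 0.429 by edgeR). The 11 named genes had adjusted p-values of 0.984 or more by edgeR.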

How the data were processed

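Per the study's methods, ribosomal reads were filtered with SortMeRNA, reads trimmed with BBDuk, and reads aligned to the PGSC-DM genome with STAR 2.6.1, whose own counter kept reads with a unique position. The values the authors deposited are raw counts of 25163 genes in 100 samples, without normalization. Groups came from the labels; bruising scores, gene names and chromosomes from the study's tables. RefSeq's gene table matched 0 of the 200 genes, so no sequence is shown.

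Members were selected on CPM from column totals with a pseudocount of 1. Tests were edgeR 4.0.16 quasi-likelihood F tests in R 4.3.3 with TMM scaling. P-values were adjusted by Benjamini-Hochberg over the 25163 genes and called under 0.05. DESeq2 1.42.0 and limma 3.58.1 were alternatives, as were other scalings, filters, terms and crosses left out. Each genotype was sequenced once, so p-values measure the spread between genotypes, plants and libraries together. Clusters used average linkage on 1 minus Pearson r with a limit of 0.5. The members, lists and tests were chosen with earlier results of these data known. Genes were named where the study's tables name them, for the 5 highest SDs, the 3 on each side of the limit, the leading gene of each module, the closest and most opposed pair, and the 2 smallest p in each direction of a comparison. The steps were tested on simulated data.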

Additional observations from a re-analysis of the deposited data

Results flagged for a closer look

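Within crosses of 4 to 10 genotypes, the samples farthest from the others were examined for the 4 module means and the 11 named genes, 120 sets in all, of which chance would mark about 5%. Only 3 sets had a sample far from the rest, and all belonged to Kunitz-type enzyme inhibitor S9C11 (PGSC0003DMG400010147). On the log2(CPM + 1) scale it was at 2.92 in genotype 2165_1 (low-bruising) against 6.08 in the next lowest of 9 genotypes, at 3.36 in 2168_2 (high-bruising) against 6.00 in the next of 7, and at 1.35 in 2172_1 (intermediate) against 5.12 in the next of 7. These 3 genotypes are among the 10 samples in which this gene lay below 10% of its median.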

How the results depend on the processing

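For the score and for the groups, 0 members were called with DESeq2, limma-voom, RLE size factors, filterByExpr, the well-expressed genes alone, log2 total count as a term, a threshold of 0.1 or any cross left out, and 2 were called for the score without a cross term. For the other replicate's score 0 were called with DESeq2 and filterByExpr, and for the interaction 0 with filterByExpr. The count of members that differed between crosses was 151, and 134 to 148 with a cross left out. The replicate numbers 1 and 2 belong to different genotypes and were no pairs: the mean differences between the numbers had an r across genes of -0.191, -0.0348 and 0.323 between the 3 bruising groups. With the replicate block, 147 members differed between crosses, 0 were called in the other comparisons, and the count of all genes called between high- and low-bruising groups went from 46 to 28. That count was 57 with DESeq2, 3 with filterByExpr and 0 with limma-voom or a cross term. The call of Aspartic protease inhibitor 8 between crosses was lost with the block (adjusted p = 0.0771 by edgeR, 0.0140 to 0.116 over the alternatives). The list kept 127 members with a mean of 20 or more CPM and 146 to 197 under the other settings, 185 to 193 with a cross left out. With other correlations and limits, 3 to 5 modules held 49 to 68 genes, and all 21 genes of module 1 and 20 of module 2 stayed together.

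Small slopes changed sign. For catechol oxidase B the score slope was -0.0305 by limma-voom, -0.0617 without a cross term, -0.0794 on the genotype mean score and -0.0471 to 0.144 with a cross left out, and the group change was -0.35 by limma-voom and -0.16 to 0.33 with a cross left out. For POT32 the group change fitted with cross was -0.00095, also as the alternative to the score slope, and the score slope was -0.0420 to 0.112 with a cross left out. The cause was not tested. Each genotype has 1 library, so differences between genotypes and between libraries cannot be told apart.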
